A study of Homo sapiens with 12 samples.

Results

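The genes described here carry proteins into mitochondria, fold them there and degrade them. They are the rows of the gene table whose symbol begins with TOMM or TIMM and a number, which gave 24 genes, and 14 further genes chosen by name: HSPD1, HSPE1, TRAP1, GRPEL1, PMPCA, PMPCB, PITRM1, LONP1, CLPP, CLPX, AFG3L2, SPG7, YME1L1 and OMA1. This made 38 of the 38019 genes in the table. Of these, 37 had enough counts to be tested, among 15135 genes tested in all, and the exception was TOMM20L, with 1 to 6 counts per library.

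RNA was sequenced from HEK293T cells, a human embryonic kidney cell line, in 12 libraries of 4 conditions, 24 h after transient transfection with FuGENE. The plasmids expressed FLAG-tagged NRF1, NRF2 or NRF3 or were the empty vector (EV), with 3 libraries each that the labels call independent experiments. NRF1 and NRF3 here are the proteins of NFE2L1 and NFE2L3, expressed from codon-optimized sequences without the N-terminal part that targets them to the endoplasmic reticulum, and NRF2 is the protein of NFE2L2 with the change T80D, which weakens its binding to the repressor KEAP1. A transient transfection reaches a part of the cells, and in bulk RNA a change in fewer cells and a smaller change per cell cannot be told apart, nor fewer cells of a type and less RNA per cell.

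Nearly all mitochondrial proteins are made in the cytosol and cross the outer membrane through the TOM complex. From there the TIM23 complex and its motor pull precursors with a cleavable leader into the matrix, the small TIM chaperones and the TIM22 complex place carrier proteins in the inner membrane, and the processing peptidases remove the leader. The chaperonin of HSPD1 and HSPE1 then folds many matrix proteins, and proteases of the matrix and inner membrane degrade those that are damaged or unassembled. The transcription factor historically known as nuclear respiratory factor 1, which is encoded by the gene with the symbol NRF1, regulates many nuclear genes for mitochondria, as does GABP, which has been called nuclear respiratory factor 2. Neither is the NRF1 or NRF2 transfected here.

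Total counts were 13452524 to 14014316 per library. Values below are CPM, the count of a gene per 1000000 counts of its library after scaling between libraries (TMM), unless a scale per length is named. NFE2L2 had a mean of 10363 CPM with NRF2 against 91.7 CPM with EV, which includes reads of the transgene, whereas NFE2L1 had 108 CPM with NRF1 against 99.0 CPM with EV and NFE2L3 had 38.2 CPM with NRF3 against 34.5 CPM with EV, so that the codon-optimized transgenes are not visible in these rows. HMOX1, an established target of this family, had means of 557, 1396 and 344 CPM with NRF1, NRF2 and NRF3 against 62.0 CPM with EV. Of the markers checked for the cell line, VIM had 326 to 497 CPM, SALL2 78.1 to 106 CPM, KRT18 28.7 to 38.6 CPM and KRT8 13.4 to 24.2 CPM. The kidney factors LHX1, EYA1 and PAX2 were low, with 2.27 to 4.61, 1.82 to 3.88 and 1.01 to 2.21 CPM. Of the markers of other cell types, the fibroblast marker COL1A1 had 8.24 to 16.0 CPM, above PAX2, and the blood marker HBA1 0.509 to 3.54 CPM. PTPRC of blood, PECAM1 of endothelium, ALB of liver, DCN of fibroblasts and MYH7 of muscle reached at most 0.882, 0.220, 0.0735, 0.0756 and 0.0725 CPM. The endothelial marker CDH5 was at 0 in all 12 libraries.

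The chaperonin genes were the most abundant of the set. Levels can be compared between genes only per length, and are given for this as CPM per kb of transcript, with the median length of the protein-coding transcripts in a later annotation (GENCODE v29). With EV, HSPD1, the HSP60 chaperonin, had 480 ± 15.0 CPM per kb (SD, n = 3 libraries) and HSPE1, its HSP10 lid, had 352 ± 23.1 CPM per kb. TOMM6, a small TOM subunit, followed with 216 ± 11.6 CPM per kb, then TRAP1, the mitochondrial member of the HSP90 family, with 191 ± 1.71 CPM per kb and TIMM23, the core of the TIM23 translocase, with 187 ± 2.30 CPM per kb. The EV libraries of TRAP1 and TIMM23 overlapped, whereas HSPD1, HSPE1 and TOMM6 were each separated from the next gene in the order.

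In all, 11 genes lay over 100 CPM per kb and 6 under 20 CPM per kb with EV. TIMM10B, a small TIM of the TIM22 complex, was the lowest tested gene with 4.63 ± 0.614 CPM per kb, and the level of HSPD1 was 104 times that of TIMM10B. TOMM40, the pore of the TOM complex, had 106 ± 0.981 CPM per kb, and its paralog TOMM40L had 6.96 ± 0.396 CPM per kb. Among the receptors, TOMM22 had 67.8 ± 4.57, TOMM70 had 31.9 ± 1.65 and TOMM20 had 22.3 ± 2.02 CPM per kb. The EV libraries of 20 of 36 neighbours in this order overlapped, so their order is not separated beyond the spread. TIMM23 and TIMM23B are near-identical copies, HSPD1, HSPE1 and TOMM20 have processed pseudogenes, and how the counting divided reads among such copies is not given in the sources used here.

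**Figure D1:**
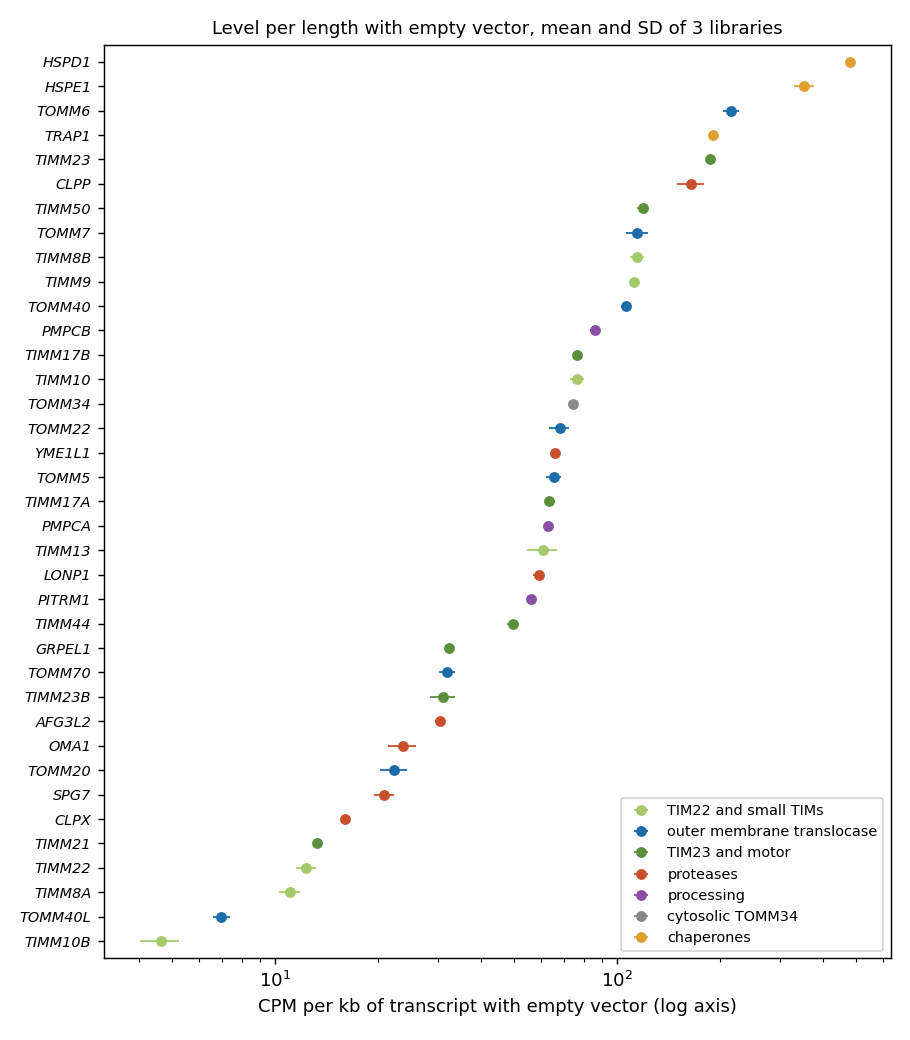
Level of the 37 tested genes with EV in CPM per kb of transcript, on a log axis, as mean and SD of 3 libraries and coloured by role. HSPD1 and HSPE1 stand at the top with 480 and 352 CPM per kb, and TIMM10B at the bottom with 4.63 CPM per kb.

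Levels of the set varied little across conditions. The highest of the 12 libraries exceeded the lowest by a factor of 1.13 for PMPCA, a subunit of the matrix processing peptidase, and by 1.84 for the small TIM gene TIMM10, with a median of 1.30 over the 37 tested genes. The summed level of the 38 genes was 5571 to 5611 CPM with NRF1, 5198 to 5549 CPM with NRF2 and 5233 to 5811 CPM with NRF3, against 5209 to 5372 CPM with EV, and HSPD1 alone had 1094 to 1293 CPM. No gene of the set had a log2 fold change over 0.5 in size in any of the 6 comparisons. The median log2 fold change over EV of the 37 genes was 0.04 with NRF1, -0.005 with NRF2 and 0.05 with NRF3, beside -0.006, 0.002 and 0.003 over all tested genes. Over the alternatives and with single libraries left out, the median of the set ran from -0.01 to 0.07 with NRF1, from -0.03 to 0.07 with NRF2 and from 0.010 to 0.10 with NRF3, so its sign was not stable with NRF1 or NRF2.

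**Figure D2:**
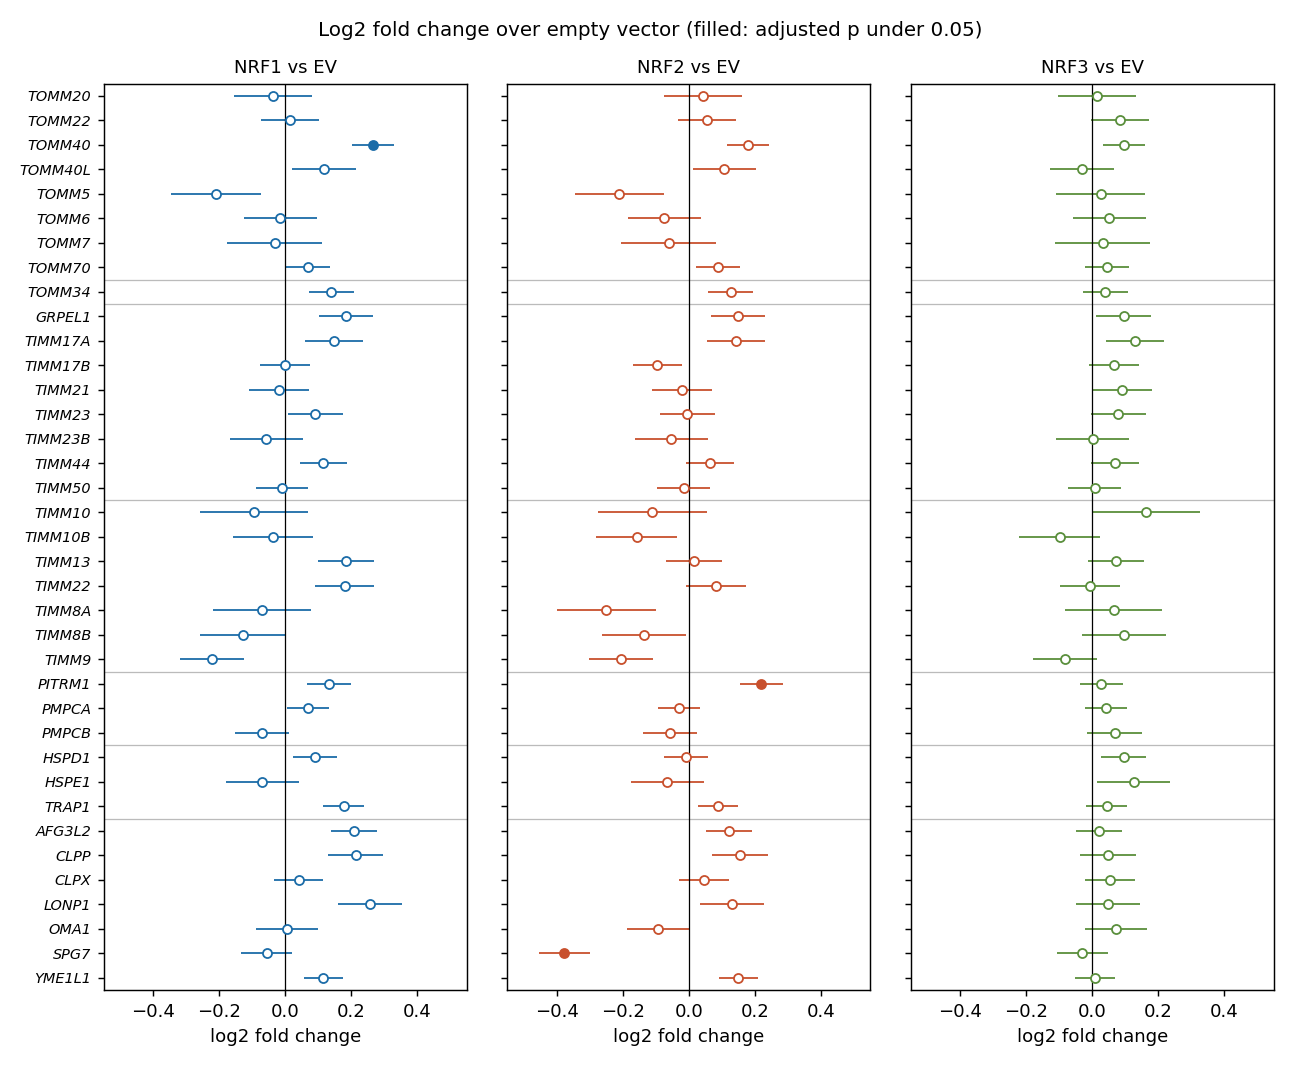
Log2 fold change over EV of the 37 tested genes in edgeR's fit, with standard errors as bars and 1 panel per transgene. Genes are grouped by role, from the TOM complex at the top to the proteases at the bottom, and filled points have an adjusted p under 0.05. The filled points are TOMM40 with NRF1 and PITRM1 and SPG7 with NRF2, and the panel for NRF3 has none.

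The promoters of the genes that edgeR called over EV (adjusted p under 0.05), SPG7, TOMM40 and PITRM1, are printed because the cap'n'collar factors bind the antioxidant response element, together with those of the chaperonin pair, the most abundant genes of the set. Sequences are from RefSeq on GRCh38.p14, a later build than the GRCh37.p13 of the counts, and are the 250 bases before the start site, 5′ to 3′ on the strand of the gene. SPG7 lies on the plus strand (chr16:89508138-89508387), TOMM40 on the plus strand (chr19:44891004-44891253), PITRM1 on the minus strand (chr10:3172717-3172966), HSPD1 on the minus strand (chr2:197499841-197500090) and HSPE1 on the plus strand (chr2:197500129-197500378). Where RefSeq lists several start sites, for SPG7, PITRM1 and HSPD1, that of the window with the lowest coordinate is shown. Capitals mark a match to one of 4 motifs searched on both strands: the antioxidant response element core TGACNNNGC, the paired heat shock unit GAANNTTC, the nuclear respiratory factor 1 core CGCATGCG and the GABP site ACTTCCGG.
SPG7: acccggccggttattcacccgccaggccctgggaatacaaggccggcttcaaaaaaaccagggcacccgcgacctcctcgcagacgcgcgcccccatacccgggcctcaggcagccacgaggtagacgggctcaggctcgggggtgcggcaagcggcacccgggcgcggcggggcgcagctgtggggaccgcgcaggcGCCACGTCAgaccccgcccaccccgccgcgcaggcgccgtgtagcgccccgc
TOMM40: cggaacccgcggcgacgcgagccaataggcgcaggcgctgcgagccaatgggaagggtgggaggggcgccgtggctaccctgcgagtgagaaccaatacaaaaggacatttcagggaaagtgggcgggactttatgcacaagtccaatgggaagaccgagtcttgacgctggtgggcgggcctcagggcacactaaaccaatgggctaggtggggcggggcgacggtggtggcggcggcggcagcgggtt
PITRM1: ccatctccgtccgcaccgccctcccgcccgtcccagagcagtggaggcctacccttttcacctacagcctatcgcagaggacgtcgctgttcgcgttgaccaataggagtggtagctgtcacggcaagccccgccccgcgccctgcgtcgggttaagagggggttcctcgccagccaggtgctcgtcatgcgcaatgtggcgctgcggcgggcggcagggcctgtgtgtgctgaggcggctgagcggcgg
HSPD1: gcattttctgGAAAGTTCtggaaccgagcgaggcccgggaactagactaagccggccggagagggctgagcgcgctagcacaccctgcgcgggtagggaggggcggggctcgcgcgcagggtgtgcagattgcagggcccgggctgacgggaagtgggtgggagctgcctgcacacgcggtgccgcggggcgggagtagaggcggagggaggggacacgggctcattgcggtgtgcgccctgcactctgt
HSPE1: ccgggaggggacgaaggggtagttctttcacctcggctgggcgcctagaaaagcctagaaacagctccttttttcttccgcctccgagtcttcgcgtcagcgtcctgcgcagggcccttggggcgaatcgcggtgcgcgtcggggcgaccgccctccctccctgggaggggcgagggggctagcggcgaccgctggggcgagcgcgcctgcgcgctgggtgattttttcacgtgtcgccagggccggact

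The capitals in SPG7 mark the antioxidant response element core on the reverse strand, from 52 bases before the start site, and those in HSPD1 the heat shock unit from 240 bases before it. TOMM40 and PITRM1 held none of the 4 motifs, and no 2 matches overlapped in the sequences printed. The start sites of HSPD1 and HSPE1 point away from each other, at 539 and 105 bases from that of HSPE1 for the 2 listed start sites of HSPD1. Motifs were counted in windows that also take in 50 bases after the start site, and 33 of the 38 genes had such a window.

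The antioxidant response element core was found for 7 of 33 genes (21.2%), against 16.1% of all 27305 genes and 13.3% of all 35116 windows in the RefSeq table: OMA1, SPG7, TIMM10B, TIMM13, TIMM17B, TIMM21 and TRAP1. Of these 7, edgeR called SPG7, lower with NRF2, and called none of the other 6 over EV with any transgene, whereas DESeq2 and limma with quality weights called TRAP1 higher with NRF1. The GABP site was found for TIMM10, TIMM10B, TOMM20, TOMM6 and TOMM70 (15.2%, against 4.95% of all genes), the nuclear respiratory factor 1 core for LONP1, TIMM9 and TOMM7 (9.09%, against 2.46%) and the heat shock unit for HSPD1 (3.03%, against 8.21%). A match describes the letters and is no measure of binding.

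With NRF1, TOMM40 was the 1 gene of the set that passed the test in edgeR. TOMM40 had 203, 223 and 228 CPM in the NRF1 libraries, against 180, 183 and 182 CPM in the EV libraries. All 3 NRF1 libraries lay above all EV libraries, and the EV libraries were nearly equal. On the log2 scale TOMM40 rose by 0.26 (standard error 0.06, 95% interval 0.13 to 0.40), a factor of 1.20, and its p after adjustment over all tested genes by the Benjamini-Hochberg procedure was 0.0426 in edgeR. This was 1 of 37 genes called, where 1.75% of all tested genes were called (36 higher and 229 lower). The call held without NRF1 replicate 1, NRF3 replicate 2 or NRF3 replicate 3, but not without any of the other 9 libraries. Leaving out each library gave log2 values of 0.23 to 0.31, with an adjusted p between 0.0146 and 0.248 in edgeR. A block for the replicate number ended the call as well, as did upper quartile scaling and the unequal variance test. DESeq2 called TOMM40 and TRAP1, where it called 1.55% of all genes it tested. Limma with quality weights called 9 genes of the set, where it called 19.0% of all tested genes. The receptor genes TOMM20, TOMM22 and TOMM70 had log2 fold changes of -0.04, 0.01 and 0.07 with NRF1 and overlapped EV.

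Of the 7 proteases with NRF1, 4 lay above EV without overlap, where 15.0% of all tested genes did, and none passed the test over all genes in edgeR. LONP1, the Lon protease of the matrix, had 185, 210 and 221 CPM in the NRF1 libraries, against 165, 174 and 177 CPM in the EV libraries (log2 fold change 0.26, standard error 0.10, adjusted p = 0.192 by edgeR). CLPP, the peptidase of the ClpXP protease, had 176, 184 and 184 CPM with NRF1, against 141, 169 and 159 CPM with EV (0.21, standard error 0.08, adjusted p = 0.211 by edgeR). AFG3L2, a subunit of the m-AAA protease of the inner membrane, had 109, 115 and 118 CPM with NRF1, against 95.1, 102 and 99.2 CPM with EV (0.21, standard error 0.07, adjusted p = 0.143 by edgeR). The groups did not overlap for any of these 3 genes. YME1L1, the i-AAA protease that faces the intermembrane space, had 272 to 275 CPM with NRF1 and 249 to 258 CPM with EV. CLPX, the unfoldase partner of CLPP, and OMA1, a stress-activated inner membrane protease, had overlapping groups, with log2 fold changes of 0.04 and 0.003, as had SPG7, a protease subunit, with -0.06.

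Among the chaperones, TRAP1 had 470, 513 and 501 CPM in the NRF1 libraries, against 434, 438 and 442 CPM in the EV libraries (log2 fold change 0.18, standard error 0.06, adjusted p = 0.156 by edgeR). HSPD1 had 1180, 1218 and 1242 CPM with NRF1, against 1162, 1160 and 1100 CPM with EV, and HSPE1 had 217, 181 and 176 CPM with NRF1, against 193, 216 and 194 CPM with EV. The NRF1 libraries of TRAP1 and HSPD1 thus lay above EV, as did those of 15.0% of all tested genes, and the NRF1 libraries of HSPE1 overlapped EV.

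For the TIM23 complex and its motor, GRPEL1, the nucleotide exchange factor of the matrix HSP70, had 101, 103 and 99.0 CPM with NRF1, against 88.4, 89.1 and 90.1 CPM with EV (log2 fold change 0.18, adjusted p = 0.263 by edgeR). TIMM23 had 244, 245 and 241 CPM with NRF1, against 231, 229 and 226 CPM with EV, and TIMM17A, which pairs with TIMM23 in the translocase, had 118, 112 and 117 CPM with NRF1, against 105, 104 and 105 CPM with EV. TIMM44, which tethers the motor, had 114, 112 and 110 CPM with NRF1, against 98.8, 107 and 104 CPM with EV. These 4 genes, of 8 in this branch, lay above EV without overlap, where 15.0% of all tested genes did. TIMM50, the receptor of the complex, had 177, 169 and 175 CPM with NRF1, against 169, 180 and 175 CPM with EV, and TIMM17B had 74.9, 71.4 and 72.9 CPM with NRF1, against 74.5, 72.7 and 72.3 CPM with EV, so both overlapped.

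No gene of the TIM22 branch passed the test with NRF1 in edgeR. TIMM13, a small TIM, had 91.8, 88.0 and 89.2 CPM with NRF1, against 77.0, 87.8 and 72.1 CPM with EV (log2 fold change 0.18), and TIMM22, the channel of the carrier translocase, had 42.9 to 47.8 CPM with NRF1 and 36.3 to 41.4 CPM with EV. TIMM9, another small TIM, had 61.0, 56.6 and 54.2 CPM with NRF1, against 66.7, 68.4 and 65.2 CPM with EV (log2 fold change -0.22, standard error 0.10, adjusted p = 0.253 by edgeR), and its partner TIMM10 had a log2 fold change of -0.10 with overlapping groups. The groups of TIMM8A, TIMM8B and TIMM10B also overlapped, with log2 fold changes of -0.07, -0.13 and -0.04. TOMM5, a small TOM subunit, had 40.1 to 46.1 CPM with NRF1 and 47.5 to 52.7 CPM with EV. TIMM9 and TOMM5 were the 2 genes of the set whose NRF1 libraries all lay below EV, where 15.9% of all tested genes did.

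Over the set, 14 genes had all NRF1 libraries above all EV libraries and 2 had them all below, which is 37.8% and 5.41% of 37. The shares among all tested genes were 15.0% above and 15.9% below. At an unadjusted p under 0.05, 7 genes were higher and 1 was lower, 18.9% and 2.70%, where 7.45% and 9.90% of all tested genes were. The 7 were TOMM40, AFG3L2, TRAP1, LONP1, CLPP, GRPEL1 and TIMM13, and the 1 was TIMM9.

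**Figure D3:**
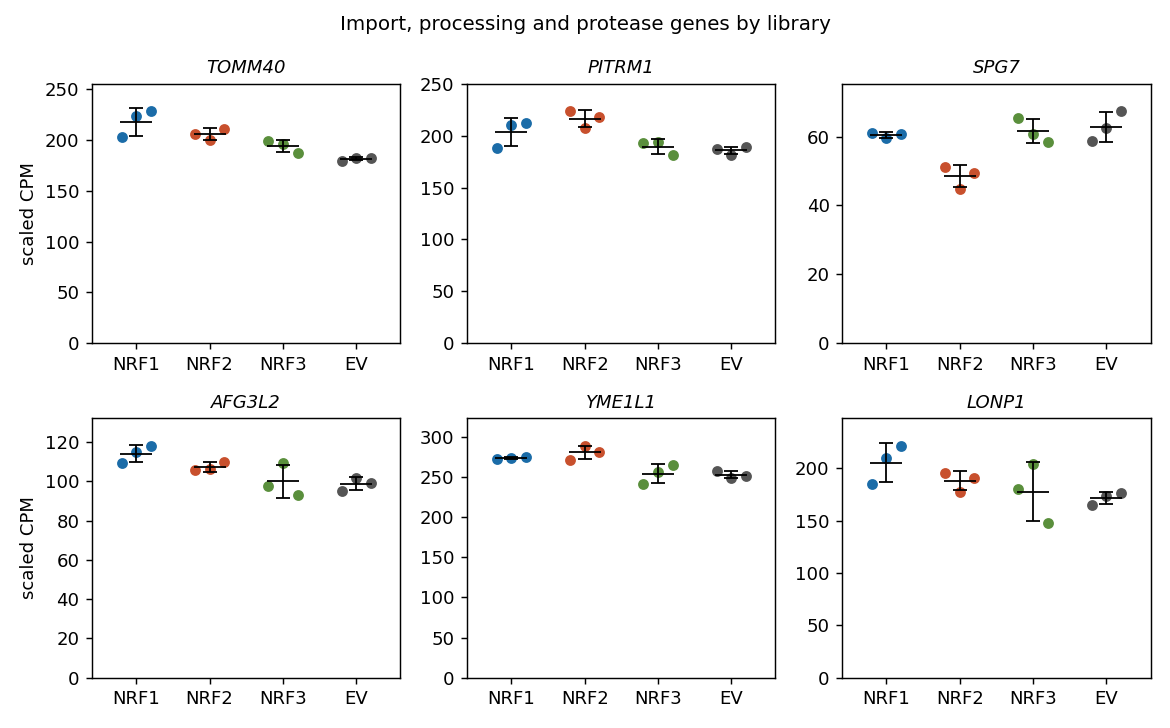
Scaled CPM of TOMM40, PITRM1, SPG7, AFG3L2, YME1L1 and LONP1 in each library, from axes that start at 0, with the mean and SD of 3 libraries per condition. The NRF2 libraries of SPG7, at 44.8 to 51.0 CPM, lie below all others, and the NRF1 and NRF2 libraries of TOMM40 lie above the EV libraries at 180 to 183 CPM.

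With NRF2, SPG7 fell and PITRM1 rose, and no other gene of the set passed the test in edgeR. SPG7 encodes paraplegin, the subunit that assembles with AFG3L2 in the m-AAA protease and is mutated in a hereditary spastic paraplegia. SPG7, the called gene whose promoter window holds the antioxidant response element core, had 51.0, 44.8 and 49.3 CPM in the NRF2 libraries, against 58.7, 62.5 and 67.3 CPM in the EV libraries. It fell by 0.38 on the log2 scale (standard error 0.08, 95% interval -0.54 to -0.21, adjusted p = 0.00530 in edgeR), to 0.770 times the EV level. Its NRF1 libraries had 61.1, 59.5 and 60.6 CPM and its NRF3 libraries 65.4, 60.9 and 58.4 CPM, so that the NRF2 libraries lay below the other 9. SPG7 kept its call without each of the 12 libraries in turn, and lost it, besides under a required log2 change over 0.5, under 1 of 13 other alternatives, the unequal variance test on log2 CPM (adjusted p = 0.136). Its log2 fold changes were -0.42 to -0.32 over all of these.

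PITRM1, the presequence peptidase that clears cleaved leaders from the matrix, had 224, 208 and 218 CPM in the NRF2 libraries, against 187, 182 and 189 CPM in the EV libraries. It rose by 0.22 on the log2 scale (standard error 0.07, 95% interval 0.08 to 0.36, adjusted p = 0.0430 in edgeR), a factor of 1.16. All NRF2 libraries lay above EV, and the NRF1 libraries had 188, 211 and 212 CPM and the NRF3 libraries 193, 194 and 181 CPM. The call of PITRM1 held without NRF1 replicate 1, NRF3 replicate 2 or NRF3 replicate 3 and was lost without each of the other 9 libraries (adjusted p of 0.0174 to 0.152 over the 12), and also with the replicate number as a block, with upper quartile scaling, without a filter on low counts and with the unequal variance test. These 2 calls among 37 genes compare with 10.5% of all tested genes called with NRF2, 709 higher and 879 lower.

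TOMM40 had 206, 200 and 211 CPM in the NRF2 libraries, against 180, 183 and 182 CPM in the EV libraries (log2 fold change 0.18, standard error 0.06, adjusted p = 0.0832 by edgeR). YME1L1 had 272, 289 and 282 CPM with NRF2, against 258, 249 and 252 CPM with EV (0.15, standard error 0.06, adjusted p = 0.129 by edgeR). AFG3L2 had 106, 106 and 110 CPM with NRF2, against 95.1, 102 and 99.2 CPM with EV, and CLPP had 171, 174 and 178 CPM with NRF2, against 141, 169 and 159 CPM with EV. None of these 4 genes overlapped between the groups, where 17.8% of all tested genes lay above EV in this way, and none of the 4 passed the test over all genes in edgeR. With NRF2, DESeq2 also called TOMM40 higher, where it called 5.40% of all genes it tested, and limma with quality weights also called TOMM40 and YME1L1 higher and TIMM9 lower, where it called 20.6%. TOMM34, a cytosolic co-chaperone that bears the TOMM name without being part of the translocase, had 162, 167 and 173 CPM with NRF2, against 148, 154 and 158 CPM with EV.

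The chaperonin genes overlapped between NRF2 and EV. HSPD1 had 1094, 1194 and 1112 CPM in the NRF2 libraries, against 1162, 1160 and 1100 CPM in the EV libraries, with a log2 fold change of -0.01 and a 95% interval of -0.15 to 0.13. HSPE1 had 173, 207 and 196 CPM with NRF2, against 193, 216 and 194 CPM with EV. TRAP1 had 459, 448 and 488 CPM with NRF2, against 434, 438 and 442 CPM with EV, all above EV, with a log2 fold change of 0.09 (adjusted p = 0.413 by edgeR).

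In the import branches with NRF2, TIMM17A had 111, 117 and 118 CPM, against 105, 104 and 105 CPM with EV, whereas TIMM17B had 66.8, 73.3 and 65.3 CPM, against 74.5, 72.7 and 72.3 CPM with EV. TIMM9 had 51.7, 64.1 and 57.9 CPM with NRF2, against 66.7, 68.4 and 65.2 CPM with EV (log2 fold change -0.21, adjusted p = 0.204 by edgeR). TIMM8A, which is mutated in a deafness and dystonia syndrome, had 12.5 to 13.9 CPM with NRF2 and 14.6 to 16.7 CPM with EV. For TIMM9 and TIMM8A, as for SPG7, the NRF2 libraries all lay below EV. In all, 9 genes lay above EV without overlap and 3 below, 24.3% and 8.11% of the set, where 17.8% and 17.6% of all tested genes did. At an unadjusted p under 0.05, TOMM40, PITRM1 and YME1L1 were higher and SPG7 was lower, in all 10.8% of the set and 24.5% of all tested genes.

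With NRF3 no gene of the set passed the test in edgeR, and none reached an unadjusted p under 0.05. DESeq2 and limma also called none. Of all tested genes 0.0264% were called, 3 higher and 1 lower, and 4.11% had an unadjusted p under 0.05. TOMM40 had 199, 197 and 188 CPM in the NRF3 libraries, against 180, 183 and 182 CPM in the EV libraries (log2 fold change 0.10, 95% interval -0.04 to 0.23). TRAP1 had 452, 454 and 447 CPM with NRF3, against 434, 438 and 442 CPM with EV. These were the 2 genes whose NRF3 libraries all lay above EV, 5.41% of the set where 3.95% of all tested genes did, and no gene lay below.

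The point estimate with NRF3 was above 0 for 32 of the 37 genes, 86.5% where it was 50.8% of all tested genes. The estimates of the set were small and ran from -0.10 to 0.16. Estimates above 0 were not particular to the set. They were also found for 69 of 77 genes of the mitochondrial ribosome, 30 of 37 of respiratory complex I and 8 of 8 of the cytosolic chaperonin. LONP1 had 180, 204 and 148 CPM with NRF3, against 165, 174 and 177 CPM with EV, and HSPD1 had 1146, 1216 and 1293 CPM, against 1162, 1160 and 1100 CPM with EV. The 95% interval lay within 0.5 on either side of 0 for 36 of 37 genes with NRF3, for 35 with NRF2 and for 37 with NRF1. The 3 comparisons share the EV libraries and with them their error.

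In direct comparisons of the transgenes, SPG7 was the 1 gene of the set that edgeR called. It was lower with NRF2 than with NRF3 (log2 fold change -0.35, standard error 0.08, adjusted p = 0.0146 in edgeR), the only call among 37 genes where 5.17% of all tested genes were called. This call was lost without NRF2 replicate 2 or NRF3 replicate 1 (adjusted p between 0.00608 and 0.0845 in edgeR over 12 such fits). With NRF2 against NRF1 the fold change of SPG7 was -0.32 with an adjusted p of 0.0556 by edgeR, and no gene of the set was called, where 1.25% of all tested genes were. In this comparison 1 gene, SPG7, had an unadjusted p under 0.05 (2.70% of the set, where 10.7% of all tested genes did), and DESeq2 and limma with quality weights each called SPG7.

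PITRM1 had a log2 fold change of 0.19 with NRF2 over NRF3 (adjusted p = 0.104 by edgeR) and 0.09 over NRF1 (adjusted p = 0.701 by edgeR), so its call with NRF2 is not shown to set NRF2 apart from the other transgenes. TOMM40 was at -0.08 with NRF2 over NRF1 (95% interval -0.22 to 0.05) and at 0.17 with NRF1 over NRF3 (adjusted p = 0.331 by edgeR). With NRF1 against NRF3 edgeR called no gene of the set and 0.396% of all tested genes. There AFG3L2 (log2 fold change 0.19), LONP1 (0.21), TRAP1 (0.13) and TOMM40 had an unadjusted p under 0.05 in edgeR. All were higher, 10.8% of the set where 4.91% of all tested genes were. None was lower, where 6.82% of all tested genes were. DESeq2 called no gene there and limma with quality weights called AFG3L2.

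Ratios of partner genes are given as a description, with no test and no such ratio over other genes beside them. The ratio of AFG3L2 to SPG7, both in CPM per kb, was 1.66, 1.79 and 1.80 in the NRF1 libraries, 1.92, 2.20 and 2.07 in the NRF2 libraries and 1.38, 1.67 and 1.48 in the NRF3 libraries, against 1.50, 1.51 and 1.37 in the EV libraries. The NRF2 ratios thus lay above those of the other 9 libraries, and the NRF1 ratios above EV. This ratio was chosen after the values of SPG7 were known and restates its fall. The ratio of TIMM17A to TIMM17B was 0.912, 0.905 and 0.928 with NRF1, 0.961, 0.924 and 1.04 with NRF2 and 0.815, 0.808 and 0.959 with NRF3, against 0.815, 0.828 and 0.834 with EV, so that NRF1 and NRF2 lay above EV and NRF3 overlapped it. The ratio of TIMM10 to TIMM9 was 0.761, 0.739 and 0.738 with NRF1, above EV at 0.656, 0.703 and 0.690, and overlapped EV with NRF2 and NRF3. The ratios of HSPD1 to HSPE1, of CLPP to CLPX and of PMPCB to PMPCA, the subunits of the processing peptidase, overlapped EV with each transgene.

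The spread within a condition was related to transcript length. Genes with short transcripts, among them TOMM7, TIMM10, HSPE1, TIMM9, TOMM6, TOMM5 and TIMM8B, were high together in some libraries and low together in others of the same condition. The median deviation of the 10 shortest from the mean of the condition, on the log2 scale, was 0.27 in NRF3 replicate 3 and -0.28 in NRF3 replicate 2, and it was 0.13 in NRF2 replicate 2 and -0.11 in NRF2 replicate 1. With NRF1 it was -0.08 to 0.10 and with EV -0.03 to 0.07. For the 10 longest it was -0.03 to 0.03 over the 12 libraries, although single genes among them deviated more and in opposite directions. In NRF3 replicate 3, TOMM20 was at 0.30 and LONP1 at -0.25. TIMM10, for example, had 46.6, 31.7 and 57.7 CPM in the 3 NRF3 libraries and HSPE1 had 222, 182 and 253 CPM.

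Across the 37 genes the correlation of these deviations with log2 transcript length was -0.55 to 0.74 over the NRF3 libraries, -0.56 to 0.53 over the NRF2 libraries, -0.49 to 0.39 over the NRF1 libraries and -0.34 to 0.21 over the EV libraries. Over the 13406 tested genes with a length it was -0.35 to 0.48, -0.21 to 0.35, -0.16 to 0.14 and -0.09 to 0.09 in the same order. Genes of a library share its depth and preparation and are not independent, so no p is given. The median SD per gene on the log2 scale was 0.14 with NRF3, 0.08 with NRF2, 0.08 with NRF1 and 0.06 with EV over the set, and 0.19, 0.12, 0.11 and 0.09 over all tested genes. Whether RNA quality or library preparation has a part in this was not tested.

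**Figure D4:**
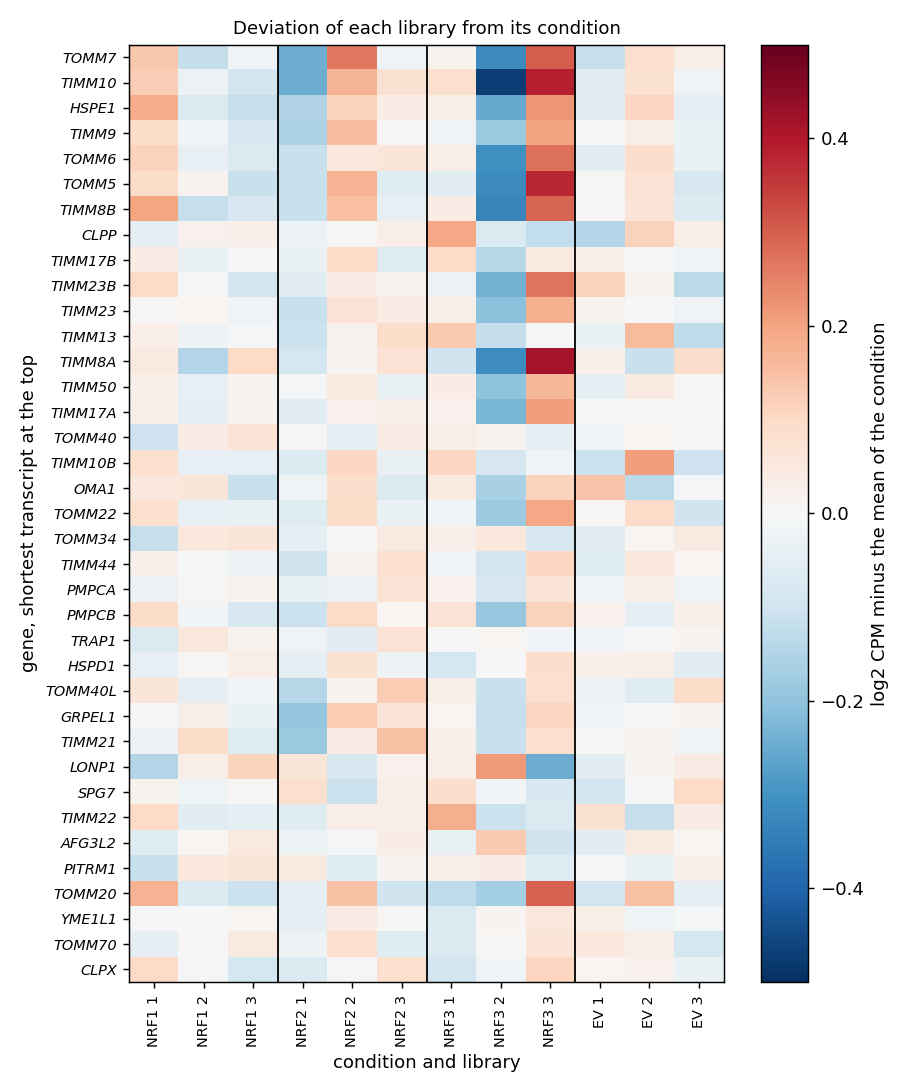
Deviation of log2 CPM in each library from the mean of its condition, for the 37 tested genes with the shortest transcript at the top and the libraries of NRF1, NRF2, NRF3 and EV from left to right. The short-transcript rows turn from blue in NRF3 replicate 2 (median of the 10 shortest -0.28) to red in NRF3 replicate 3 (0.27). The rows of the longest transcripts do not turn together, and single ones deviate in opposite directions, as TOMM20 (0.30) and LONP1 (-0.25) in NRF3 replicate 3.

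Several of these short-transcript genes were among the calls that appeared without NRF3 replicate 2. NRF2 against NRF3 then called 1 gene higher, PITRM1, and 9 lower, namely SPG7, HSPE1, PMPCB, TIMM10, TIMM17B, TIMM8A, TIMM8B, TOMM5 and TOMM6, where 20.1% of all tested genes were called. NRF1 against NRF3 called AFG3L2 and LONP1 higher and HSPE1, TIMM10, TIMM8B and TOMM5 lower, where 8.77% of all tested genes were called. With the slope on transcript length of each library as a covariate, a setting chosen with the data in view, 7 genes were higher with NRF1 than with EV (AFG3L2, GRPEL1, LONP1, TIMM13, TIMM17A, TOMM40 and TRAP1) and none was lower, where 573 of all tested genes were higher and 843 lower (9.36%), and with NRF2 5 were higher (GRPEL1, PITRM1, TIMM17A, TOMM40 and YME1L1) and SPG7 was lower, where 18.9% of all tested genes were called.

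The shares of all tested genes called beside the counts of the related gene lists were 1.75%, 10.5% and 0.0264% with NRF1, NRF2 and NRF3 in edgeR, 1.55%, 5.40% and 0.0299% in DESeq2 and 19.0%, 20.6% and 0.0661% in limma with quality weights. DESeq2 tested 26772 genes, without the filter on low counts, against 15135 in edgeR and limma, so its shares have another base and are not comparable with theirs. At an unadjusted p under 0.05 in edgeR they were 17.4%, 24.5% and 4.11%. Of 26 tested genes for other parts of mitochondrial import and quality control, edgeR called none with NRF1 or NRF3, where 2 and 0 had an unadjusted p under 0.05, and CLPB with NRF2. DESeq2 called 0, 2 and 0 of them with NRF1, NRF2 and NRF3, and limma with quality weights 6, 2 and 0. CLPB, a disaggregase of the intermembrane space, rose with NRF2 to a mean of 70.7 ± 5.32 CPM, against 55.3 ± 1.90 CPM with EV (SD, n = 3 libraries; log2 fold change 0.35, standard error 0.09, adjusted p = 0.0208 by edgeR). HSPA9, the matrix HSP70 that drives import, had 706 ± 23.1 CPM with NRF1 and 702 ± 21.2 CPM with NRF2, against 622 ± 3.43 CPM with EV, with adjusted p of 0.164 and 0.103 by edgeR. Limma with quality weights called HSPA9 higher with NRF1 and with NRF2, and DESeq2 called it with NRF2 only. With NRF2 over NRF1 the log2 fold change of HSPA9 was -0.007.

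No gene among 77 of the mitochondrial ribosome, 37 of respiratory complex I or 8 of the cytosolic chaperonin was called over EV with any transgene by edgeR. With NRF1, 14, 5 and 7 of them in this order lay above EV without overlap, where 15.0% of all tested genes did. Below EV lay 3, 2 and 0, where 15.9% did. At an unadjusted p under 0.05 with NRF1, NRF2 and NRF3 there were 3, 3 and 0 ribosomal genes, 1, 1 and 0 of complex I, and 2, 0 and 0 of the chaperonin. DESeq2 called 1 of these genes in all, MRPS2 of the small ribosomal subunit, higher with NRF1, and limma with quality weights called 8, 4 and 0 ribosomal genes, 3, 1 and 0 of complex I and 3, 0 and 0 of the chaperonin. All 8 cytosolic chaperonin genes had estimates above 0 with each transgene, at medians of 0.11, 0.06 and 0.08, where 48.7%, 50.6% and 50.8% of all tested genes did and the comparisons share the EV libraries. Among 8 regulators of mitochondrial genes and stress, ATF5, a transcription factor of the mitochondrial stress response and named after its values were seen, was called with NRF2, at 25.1 ± 5.74 CPM against 17.1 ± 0.676 CPM with EV (log2 fold change 0.55, standard error 0.14, adjusted p = 0.0170 by edgeR). It had 22.5 ± 2.40 CPM with NRF1 and 21.9 ± 2.21 CPM with NRF3, log2 fold changes over EV of 0.40 and 0.36 with adjusted p of 0.157 and 0.994 by edgeR, and 0.16 with NRF2 over NRF1 (adjusted p = 0.754 by edgeR). Limma with quality weights also called ATF5 and the heat shock factor gene HSF1 higher with NRF1. ATF4 had 582 ± 22.2 CPM with NRF2 against 582 ± 8.70 CPM with EV.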

How the data were processed

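The members and gene lists were chosen with earlier results of these data known. RNA from 12 HEK293T libraries was sequenced at BGI and processed by the authors in the DNASTAR Lasergene Genomics Suite on GRCh37.p13. Neither the suite's version nor its way of counting reads is given in the sources used here. Per gene, the deposited values are estimated counts, which the authors did not normalize between libraries, with 0.009 for no count. Columns headed Vehicle were taken as the empty vector libraries of the same number. All libraries were counted as separate samples, since the labels call them independent experiments. Within every condition the chi-square of each pair exceeded its degrees of freedom (ratio 2.18 to 29.5), so the libraries differed by more than counting error. This check cannot tell separate transfections from separate preparations of the same RNA.

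Values were rounded to whole counts. Genes were kept by filterByExpr (minimum count 10), and TMM, a trimmed mean of log ratios, set the scaling between libraries. A single model of the 4 conditions was tested with edgeR 4.0.16 (quasi-likelihood, robust) in R 4.3.3, with Benjamini-Hochberg adjustment over 15135 genes and a call at an adjusted p under 0.05. The standard error is the log2 fold change divided by the square root of F. Per-library values are given for every gene of the set that edgeR called in the main fit and for many core subunits, though not in every condition. The core genes TOMM20, TOMM22, PMPCB, CLPX and OMA1 are without them. DESeq2 1.42.0, limma 3.58.1 with library quality weights, the unequal variance test of the study's methods, other scalings, filters and fits, the replicate number as a block and leaving out each library were the alternatives. Transcript lengths (GENCODE v29) were found for 88.6% of tested genes. Simulated counts served only as a check of the code, and no result given here rests on them. P-values measure only the spread between libraries of the same condition. In the main fit this spread is estimated over all 4 conditions and with the help of other genes, so libraries outside a comparison also bear on its p. Read numbers before counting were not used here.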

Additional observations from a re-analysis of the deposited data

How the results depend on the processing

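The 26 fold changes followed for single genes were those of the set with the smallest p in each comparison by edgeR. None changed sign under any alternative, but genes picked in this way lie away from 0 and could hardly do so. The median of the set, which was not picked so, changed sign for NRF1 over EV (-0.01 to 0.07) and NRF2 over EV (-0.03 to 0.07) and in the comparisons between transgenes. The call of SPG7 with NRF2 over EV was the most stable, and no other gene kept its call over EV under most of the libraries left out. With each of the 12 libraries left out in turn, the genes called of the set numbered 0 to 2 for NRF1 over EV, 1 to 3 for NRF2 over EV, 0 to 0 for NRF3 over EV, 0 to 1 for NRF2 over NRF1, 0 to 10 for NRF2 over NRF3 and 0 to 6 for NRF1 over NRF3. In the same fits and order 0.215% to 3.84%, 5.19% to 14.8%, 0.0196% to 0.0391%, 0.866% to 2.15%, 2.31% to 20.1% and 0.0260% to 8.77% of all tested genes were called. Both highest values of the last 2 came without NRF3 replicate 2.

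More genes were called for NRF1 over EV with DESeq2 (2, beside 1.55% of the 26772 genes it tested without the filter), limma with quality weights (9, 8 of them higher, beside 19.0%), a fit of the 2 compared groups (9, 7 of them higher, beside 13.6%), a fit of the EV, NRF1 and NRF2 libraries (5, all higher, beside 8.03%) and the transcript length covariate (7, beside 9.36%). For NRF2 over EV these counts were 3 with DESeq2 (beside 5.40%), 5 with limma (20.6%), 3 with the fit of 2 groups (18.5%), 4 with the fit of 3 conditions (18.5%) and 6 with the length covariate (18.9%). SPG7 was the 1 gene called for NRF2 over NRF1 with DESeq2, limma, no filter, the fit of 2 groups, the fit of 3 conditions and the length covariate. In the same order these called 0.814%, 4.10%, 1.10%, 2.06%, 3.23% and 5.54% of all genes they tested. Limma with quality weights called 3 genes for NRF2 over NRF3 (beside 14.4%) and 1 for NRF1 over NRF3 (7.96%). Fewer were called with the unequal variance test, 0 for NRF1 over EV, NRF2 over EV and NRF2 over NRF3. That test called few genes at all, in this order 0.0198%, 0.542% and 0.0529% of all tested genes. Upper quartile scaling also called fewer, 0 for NRF1 and 1 for NRF2 over EV, beside 2.07% and 10.4%. So did no filter on low counts, with 1 for NRF2 over EV, beside 6.19% of 26780 genes. The fit of 2 groups called 0 for NRF2 over NRF3, beside 2.03%. A required log2 fold change over 0.5 left 0 in all comparisons. Beside this it called 1.04% of all tested genes for NRF1 over EV, 5.6% for NRF2 over EV and 3.14% for NRF2 over NRF3. The cause of these differences was not tested.

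With the replicate number as a block, 0 genes were called for NRF1 over EV and 1, SPG7, for NRF2 over EV, and the other counts stayed at 0, 0, 1 and 0. This block called 1.04% and 7.76% of all tested genes for NRF1 and NRF2 over EV and 3.69% for NRF2 over NRF3. The numbers share no stated batch, the correlation of deviations between same-numbered libraries of different conditions was -0.26 to 0.08 over 18 pairs, and 0 of 12 libraries correlated best with their own number. These values show no pairing by number. Libraries of other numbers had correlations of -0.29 to 0.36, so a smaller effect shared by number could be missed.

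The lowest tested gene of the set, TIMM10B, had 102 to 133 counts per library, so that counting error bears on the low genes. With NRF1 the standard errors of the 37 genes had a median of 0.09 and a highest value of 0.17 on the log2 scale. A change of the size seen here can pass or miss the threshold with the choice of libraries in the fit.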
